A study of Mus musculus with 6 samples.

Results

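Interferon-induced genes and interferon GTPases were measured in mouse bone-marrow derived macrophages that had met whole-glucan particles (WGP), yeast cell wall shells rich in beta-glucan. The set holds 39 genes that are textbook targets of interferon or encode its type I receptor, and each gene was found through the RefSeq accession of its array probes. Of these, 37 genes had 51 probes on the array, among 20279 named genes in all. 35 of them could be tested, among 10945 genes in all. The GTPases Mx1 and Mx2 had no named probe and were not analysed here, Oas2 and Iigp1 had probes but were not tested, and both are described under their families.

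Both groups were macrophages of C57BL/6 mice, with a mouse age of 6 to 8 weeks, labelled as polarized M2, and both were kept for 6 h in complete DMEM. One group received WGP and the other medium alone. The agent that polarized the cells, the WGP dose, and whether animals were pooled are not given in the sources used here. RNA was hybridised to single-colour Agilent arrays labelled with Cy3, and the design lists 3 samples in each group.

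The third sample of each group is not an independent array. In both groups its unprocessed values were identical to those of replicate 1 at 44397 of 44397 spots, with 0 differing. Its processed signal was derived from other arrays: in medium it was within 0.695% of the average of the first 2 replicates at every spot, and with WGP within 0.498% of 1.3 times that of the first. All values below therefore come from 2 arrays in each group, replicates 1 and 2. Whether these 2 arrays represent different cultures or mice is not stated in the labels. The spread that enters each p-value is therefore that between arrays, moderated by limma over all genes, and may be technical. The number of arrays limits the precision. According to the file headers, replicate 1 of both groups shared 1 slide and replicate 2 another, and medium lay at position 1 and WGP at position 3 of each slide, so treatment and position cannot be told apart.

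A level is given as log2 of the processed signal minus the 75th percentile of that array, so that 0 is the 75th percentile and each step of 1 is a doubling. Levels of different genes come from different probes and are not compared. A change is the mean level with WGP minus that in medium, with its standard error (SE, n = 2 arrays in each group) and a p-value adjusted by Benjamini-Hochberg over all 10945 genes in limma. The SE is limma's moderated one, not that of the gene's own arrays alone. It combines their spread (2 degrees of freedom) with a spread estimated over all genes tested (2.22 degrees of freedom). Genes past an adjusted p of 0.05 are called higher or lower. Between 45.4% and 51.0% of spots were well above background on each of these 4 arrays.

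The labelled cell type was checked against marker genes. All 8 macrophage markers with a probe were well above background on all 4 arrays. Mertk (-1.88 ± 0.10, adjusted p = 0.00174), Fcgr1 (-1.19), Aif1 (-0.53) and Lyz2 (-0.47) were lower with WGP, Cd14 was higher (1.18 ± 0.10, adjusted p = 0.00377), and Csf1r, Adgre1 and Itgam were not called. Of 11 markers of alternative activation, 6 were above background on no array (Arg1, Retnla, Ccl17, Ccl22, Irf4 and Pdcd1lg2), while Mrc1, Clec10a and Mgl2 were above it on all 4. The 3 called markers of that list were lower with WGP: Clec10a by 16.3-fold (-4.03 ± 0.17, adjusted p = 0.00127), Mrc1 by 1.55-fold (-0.64 ± 0.11, adjusted p = 0.0147) and Cd163. The Cd163 probe was well above background in medium alone, so its call sets signal against background. Its fall was 2.43-fold with the WGP level set at a floor, a bound explained with Gbp7 below. Among markers of cells that make interferons, 6 of 8 for T and NK cells were above background on no array, and Cd3e and Lck were above it on all 4 and not called. Of 6 plasmacytoid dendritic cell markers, Klk1 and Ly6d were above background on no array, Siglech was higher with WGP (1.09 ± 0.22, adjusted p = 0.0246), Ccr9 and Cox6a2 were lower, and the summed level of the list was between 149 and 207 in medium and between 276 and 287 with WGP, in units of the 75th percentile. Siglech and Pacsin1 made up nearly all of that sum, and its difference came from Siglech, at 120 and 79.8 in medium and 201 and 215 with WGP. A dimmer second Siglech probe, well above background on medium replicate 1 alone, gave -1.11, so the rise rests on the brighter probe. Of 5 B cell markers, 3 were above background on no array, and Cd79a and Cd79b were lower. Cd79b was well above background in medium alone, so its call also sets signal against background. Its fall was 5.02-fold with the WGP level set at that floor. With WGP Cd79a was well above background on replicate 1 alone. The summed level was between 0.773 and 0.958 in medium and between 0.305 and 0.319 with WGP, the latter largely background signal. Mast cell markers were above background on no array. Of 6 neutrophil markers with a probe, 4 were above background on all 4 arrays, and no neutrophil marker was called. Of 5 conventional dendritic cell markers, 2 were above it on all 4, and Ccr7 was higher. Of 5 fibroblast markers, Col1a1, Col1a2 and Dcn were above it on all 4 and not called. Col3a1 was lower, and it was not well above background with WGP. The part of such cells, and of the lower activation markers, in the results was not tested, and in bulk RNA fewer cells of a type and less RNA per cell cannot be told apart.

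Interferons are secreted proteins that bind paired receptor chains at the cell surface. The type I receptor, made of Ifnar1 and Ifnar2, activates the kinases Jak1 and Tyk2, and their signal leads to a complex with Stat2 and Irf9 that binds the interferon-stimulated response element (ISRE) of target promoters. Interferon gamma signals through its own receptor, and many of its targets carry the gamma-activated sequence (GAS). The targets include enzymes that sense or destroy viral RNA, the ubiquitin-like modifier Isg15, and GTPases that attack the vacuoles of intracellular pathogens. In macrophages, this programme accompanies the response to viruses, bacteria and many innate stimuli.

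The 4 promoters below belong to the members with the largest changes among those that held the ISRE core on either strand, which is TTTC, any 2 bases and TTTC again. They are shown because these letters are what interferon target promoters are known for. Each is the RefSeq sequence of the 250 bases before the gene's start (build GRCm38.p6), read 5′ to 3′ on the gene's strand, with ISRE matches in capitals. The windows are chr19:34640639-34640888 on the plus strand for Ifit1, chr3:142620413-142620662 on the plus strand for Gbp2, chr3:142496684-142496933 on the plus strand for Gbp5, and chr4:156200819-156201068 on the minus strand for Isg15.
Ifit1: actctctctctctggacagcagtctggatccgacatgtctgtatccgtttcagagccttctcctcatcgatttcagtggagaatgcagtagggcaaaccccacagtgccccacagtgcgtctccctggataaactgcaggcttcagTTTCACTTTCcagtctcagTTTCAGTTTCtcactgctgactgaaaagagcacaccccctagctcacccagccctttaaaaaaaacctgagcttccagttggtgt
Gbp2: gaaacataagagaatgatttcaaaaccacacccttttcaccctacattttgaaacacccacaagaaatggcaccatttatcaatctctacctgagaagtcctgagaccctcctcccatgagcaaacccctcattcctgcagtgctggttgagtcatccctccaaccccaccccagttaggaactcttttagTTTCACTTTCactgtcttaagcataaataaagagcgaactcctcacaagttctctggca
Gbp5: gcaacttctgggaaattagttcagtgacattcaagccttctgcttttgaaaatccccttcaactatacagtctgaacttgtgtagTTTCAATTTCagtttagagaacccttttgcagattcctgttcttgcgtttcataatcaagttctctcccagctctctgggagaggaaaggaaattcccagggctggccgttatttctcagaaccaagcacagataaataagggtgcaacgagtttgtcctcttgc
Isg15: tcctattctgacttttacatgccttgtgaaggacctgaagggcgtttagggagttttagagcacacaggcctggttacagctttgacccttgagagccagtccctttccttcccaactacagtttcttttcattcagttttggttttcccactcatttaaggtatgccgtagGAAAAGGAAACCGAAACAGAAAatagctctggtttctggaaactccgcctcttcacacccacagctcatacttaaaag
The Ifit1 window held 2 matches, starting at -104 and -85 from the gene's start. Gbp2 held 1 at -59, and Gbp5 held 1 at -165. In Isg15, 3 matches overlapped on the reverse strand, so its capitals read as the reverse complement of the core, and their first printed bases are at -78, -72 and -66.

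Part of the set was higher with WGP and most of the rest was not called. 18 of the 35 tested members were higher, 1 was lower (Sp100) and 16 were not called. That is 51.4% higher, where 23.5% of all genes tested were higher, and 2.86% lower, where 17.2% of all genes were lower (40.7% in either direction). 10 members rose at least 2-fold (28.6%), against 8.13% of all genes, and 0 fell at least 2-fold, against 6.59% of all genes (14.7% in either direction). The median change of the 35 members was 0.40 on the log2 scale, and that of all genes was 0.034. Both WGP arrays lay above both medium arrays for 25 members and below them for 5, with 41.1% and 33.9% of all genes, respectively. For the 19 called members the arrays of the groups did not overlap, where 75% of all genes did not. Without overlap the change has the same sign on both slides by construction, so that sign is no separate check.

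**Figure D1:**
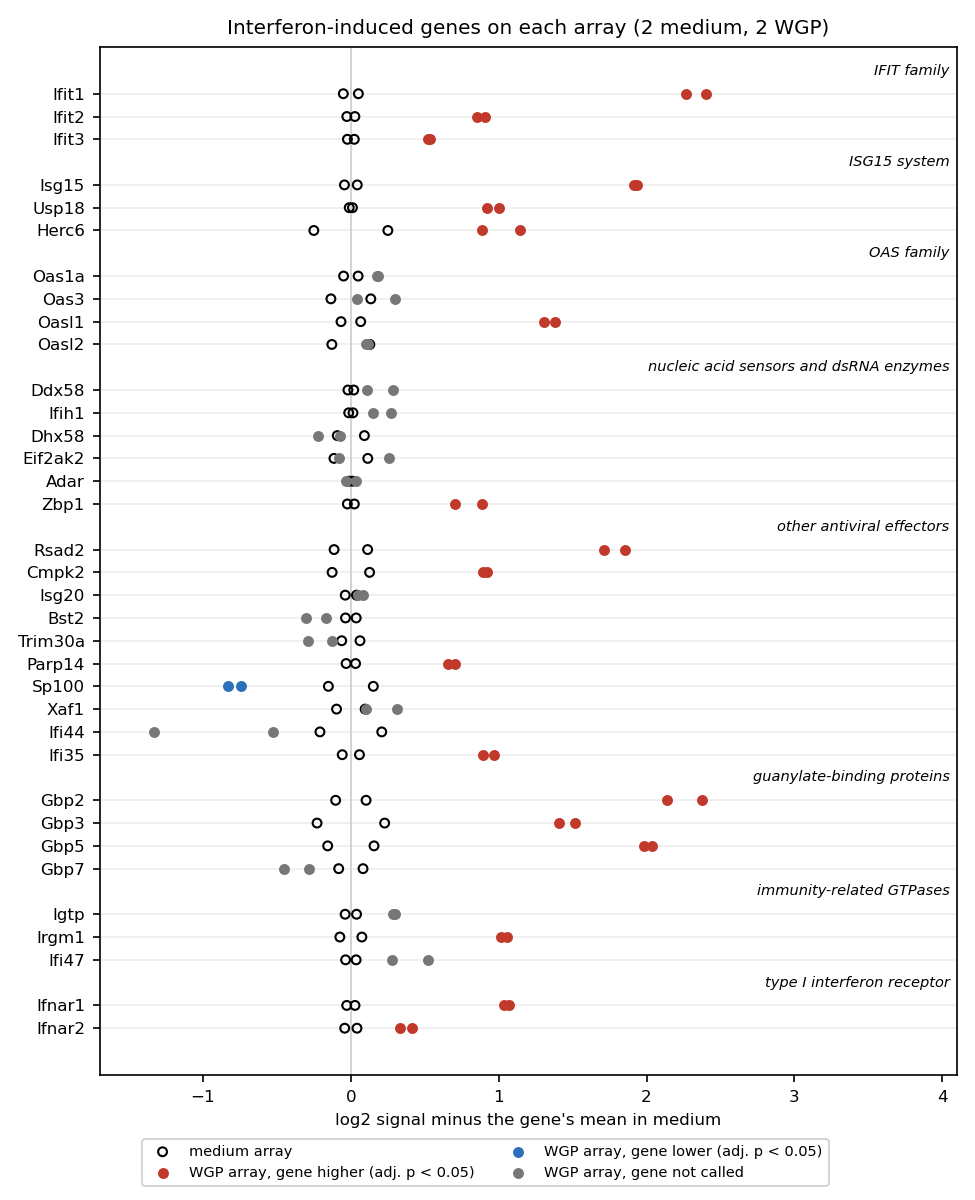
Level of each tested member on each array, in log2 units relative to the gene's own mean in medium (x axis), grouped by role; open circles are the 2 medium arrays and filled circles the 2 WGP arrays, red where higher, blue where lower and grey where not called. The WGP circles of Ifit1, Gbp2 and Gbp5 lie farthest to the right, those of Sp100 lie to the left, and those of most sensors lie among or close to the medium circles.

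The receptor came first in the signalling order. Ifnar1, the chain that binds Tyk2, lay at 3.00 and 2.94 in medium and at 4.01 and 4.04 with WGP. Both WGP arrays were higher than both medium arrays, a 2.08-fold rise (1.05 ± 0.094, adjusted p = 0.00394), and its 3 probes gave changes between 0.98 and 1.05. Ifnar2, the chain with the higher affinity for interferon, lay at 3.64 and 3.55 in medium and at 3.92 and 4.01 with WGP. The groups did not overlap, but the rise was small (0.37 ± 0.10, adjusted p = 0.0472). The call on Ifnar2 was lost when any 1 array was left out: the adjusted p was 0.0844 without medium replicate 1, 0.131 without medium replicate 2, 0.148 without WGP replicate 1 and 0.209 without WGP replicate 2. It was also lost with the slide as a replicate block (adjusted p = 0.0811).

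The IFIT family binds viral RNA that lacks the cap marks of host messages and blocks its translation. All 3 members rose, where 23.5% of all genes were higher, and the amounts differed widely. Ifit1 lay at -1.02 and -1.12 in medium and at 1.20 and 1.33 with WGP. Its medium arrays were below the 75th percentile of the array and its WGP arrays above it, a 5.05-fold rise (2.34 ± 0.11, adjusted p = 0.00142). Ifit2, a family member with a role in cell death, rose 1.84-fold (0.88 ± 0.095, adjusted p = 0.0057). Ifit3, which partners other IFIT proteins, rose 1.44-fold (0.53 ± 0.093, adjusted p = 0.0168). The call on Ifit3 was lost without medium replicate 2 and with either WGP array left out, at adjusted p-values of 0.0595, 0.0904 and 0.0912. Whether probes of such close relatives share signal was not tested.

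All 3 genes of the ISG15 system also rose, where 23.5% of all genes were higher. Isg15, the modifier that is joined to other proteins, lay at 4.46 and 4.55 in medium and at 6.42 and 6.44 with WGP. It was bright on every array, and both WGP arrays stood far above the medium pair, a 3.79-fold rise (1.92 ± 0.097, adjusted p = 0.00157). Its 2 probes gave 1.76 and 1.92. Usp18, the protease that removes Isg15 and also restrains the type I receptor, rose 1.95-fold (0.96 ± 0.096, adjusted p = 0.00492). Herc6, the ligase that attaches Isg15 in the mouse, lay at -2.80 and -2.29 in medium and at -1.40 and -1.66 with WGP. It was dim, and its medium arrays were far apart (SD 0.35, n = 2). It rose 2.02-fold (1.01 ± 0.21, adjusted p = 0.0263), by 1.39 on the first slide and 0.64 on the second. The call on Herc6 was lost without medium replicate 1 and with either WGP array left out, at adjusted p-values of 0.0575, 0.0983 and 0.0619.

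Oligoadenylate synthetases sense double-stranded RNA and make the messenger that activates RNase L. Of the 4 that were tested, 1 rose (25%, against 23.5% of all genes). Oasl1, a relative without synthetase activity, lay at 1.16 and 1.29 in medium and at 2.60 and 2.53 with WGP. The WGP arrays were higher by 1.34 ± 0.11, a 2.54-fold rise (adjusted p = 0.00315). Oas1a, one of the catalytic synthetases, lay at 6.10 and 6.00 in medium and at 6.23 and 6.22 with WGP. It was bright throughout and its change was 0.18 ± 0.098 (adjusted p = 0.213), while a dimmer second probe gave -0.25. Oas3 changed by 0.17 and Oasl2 by 0.11, with adjusted p-values of 0.437 and 0.526. In both, the arrays of the groups overlapped. Oas2 could not be tested because the scanner software marked its spot on medium replicate 2 as an outlier. It lay at 3.51 on medium replicate 1 and at 3.26 and 3.43 with WGP. With outlier spots kept, a setting chosen after seeing the data, its change was -0.47 ± 0.24 (adjusted p = 0.188).

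The sensors and double-stranded RNA enzymes showed 1 called change among 6 (16.7%, against 40.7% of all genes). Zbp1, a sensor of left-handed nucleic acid that can trigger necroptosis, rose 1.74-fold (0.80 ± 0.11, adjusted p = 0.0104), and its 2 probes gave 0.55 and 0.80. Leaving out WGP replicate 1 ended the call on Zbp1 (adjusted p = 0.0553). The helicase sensors of viral RNA, Ddx58 and Ifih1, changed by 0.20 ± 0.11 and 0.21 ± 0.10, with adjusted p-values of 0.216 and 0.165. The 95% interval of Ddx58 ran from -0.10 to 0.50 and that of Ifih1 from -0.063 to 0.49, so a doubling lay outside both. Dhx58, a helicase that modulates the other two, changed by -0.15 (adjusted p = 0.381). Eif2ak2, the kinase that stops translation on sensing double-stranded RNA, changed by 0.09 (adjusted p = 0.695). Adar, which edits double-stranded RNA, changed by 0.0022 on its brightest probe (adjusted p = 0.986) and by 0.64 on its second.

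Of the 10 other antiviral effectors, 4 were higher (40%), 1 was lower (10%) and 5 were not called. Of all genes, 23.5% were higher and 17.2% lower. Rsad2 encodes viperin, which makes a nucleotide that stops viral polymerases. It lay at 0.66 and 0.89 in medium and at 2.48 and 2.63 with WGP. All 4 arrays were above the 75th percentile, and the WGP pair was 3.44-fold higher (1.78 ± 0.13, adjusted p = 0.00281). Cmpk2, a mitochondrial nucleotide kinase encoded next to Rsad2, rose 1.88-fold (0.91 ± 0.13, adjusted p = 0.00995). Ifi35, which pairs with Nmi, rose 1.91-fold (0.93 ± 0.10, adjusted p = 0.00592). Parp14, an ADP-ribosyltransferase, rose 1.61-fold (0.68 ± 0.096, adjusted p = 0.01). Sp100, a component of nuclear bodies, was the called member that fell, and it lay at 0.64 and 0.94 in medium and at 0.046 and -0.039 with WGP. Both WGP arrays were lower, by 1.73-fold (-0.79 ± 0.14, adjusted p = 0.0179).

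Some of these effector calls were lost when an array was left out. Without WGP replicate 1 these were the calls on Cmpk2, Parp14 and Sp100, and without WGP replicate 2 those on Parp14 and Sp100. Such a fit leaves 1 array in a group, and fewer of all genes were called in it as well. These losses are therefore not particular to the effectors, and the same holds wherever an array is left out. Isg20, an exonuclease that degrades viral RNA, lay at 2.06 and 1.98 in medium and at 2.07 and 2.10 with WGP. Both WGP arrays lay just above the medium pair (0.067 ± 0.096, adjusted p = 0.609), and a dimmer second probe gave -0.44. Xaf1, which opposes an inhibitor of cell death, lay at 3.99 and 4.19 in medium and at 4.40 and 4.19 with WGP. Its change was 0.21 ± 0.13 (adjusted p = 0.28), but its second probe lay at -0.96 and -1.55 in medium and at -2.26 and -2.62 with WGP, a change of -1.18. The direction for Xaf1 therefore depended on the probe.

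The last 3 effectors were lower with WGP on both arrays without passing the test. Bst2, the tether that holds budding virions at the cell surface, changed by -0.24 ± 0.11 (adjusted p = 0.145). Trim30a, which restrains Toll-like receptor signalling, changed by -0.21 ± 0.11 (adjusted p = 0.213). Ifi44 lay at -1.99 and -2.41 in medium and at -3.54 and -2.73 with WGP. Its spread between the WGP arrays was wide and 1 of them was not well above background (-0.93 ± 0.33, adjusted p = 0.0868). With WGP replicate 2 left out, the WGP array that remains is the one not well above background, so no call on Ifi44 is read from it.

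Guanylate-binding proteins are large GTPases that gather on pathogen vacuoles and bacteria and help to open them. 3 of the 4 rose at least 2-fold (75%, against 8.13% of all genes). Gbp2, which is recruited to such vacuoles, lay at -0.47 and -0.67 in medium and at 1.57 and 1.80 with WGP. Both medium arrays were below the 75th percentile and both WGP arrays were well above it, a 4.78-fold rise (2.26 ± 0.14, adjusted p = 0.00214). Gbp5, a promoter of inflammasome assembly, lay at -0.34 and -0.66 in medium and at 1.54 and 1.48 with WGP. It moved in the same way, 4.02-fold higher (2.01 ± 0.14, adjusted p = 0.00267). Gbp3, a further family member, lay at 0.44 and -0.015 in medium and at 1.73 and 1.62 with WGP. Its medium arrays were spread more than those of Gbp2 and Gbp5 (SD 0.32, n = 2), and the rise was 2.75-fold (1.46 ± 0.19, adjusted p = 0.00804).

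Gbp7, which lies between Gbp5 and Gbp3 on chromosome 3 in the RefSeq gene order, was not called. It lay at -2.28 and -2.45 in medium and at -2.82 and -2.65 with WGP. Both WGP arrays were below both medium arrays and not well above background. The estimate was 1.29-fold lower (-0.37 ± 0.12, adjusted p = 0.0763). A bound, where given, takes the mean of the dim group at the higher of its own signal and a floor. The floor is the lowest signal of any probe well above background on that array. A probe can lie above the floor without being well above background, as Gbp7 did with WGP. A bound is therefore no strict minimum. For Gbp7 its own signal was the higher, so the bound equals the estimate and sets no minimum fall. After normexp background correction the change of Gbp7 was 0.094 (adjusted p = 0.444), so its direction depended on the processing.

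Immunity-related GTPases are smaller relatives that also act on vacuoles and on autophagy. 1 of the 3 that were tested rose (33.3%, against 23.5% of all genes). Irgm1, a regulator of the family that sits on host membranes, lay at 1.31 and 1.16 in medium and at 2.30 and 2.26 with WGP. Both WGP arrays were higher, 2.05-fold (1.04 ± 0.11, adjusted p = 0.00511), and its 2 probes gave 0.49 and 1.04. Igtp, a second regulator, changed by 0.29 ± 0.096 (adjusted p = 0.076), and Ifi47 by 0.40 ± 0.13 (adjusted p = 0.0683). Both lay higher on each WGP array than on each medium array without passing the test. Iigp1, an effector GTPase, was well above background on medium replicate 1 and WGP replicate 1 alone, at -2.61 and -2.68 in medium and at -2.08 and -3.09 with WGP on its brighter probe, so no change is given.

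The size of these changes depended on the treatment of background. Of the 10 members that rose at least 2-fold, 6 had a reported change over 1.5 times as large as after normexp correction with an offset of 50, where the 10 ranged from 0.34 (Herc6) to 1.67 (Isg15). Ifit1 then rose by 1.09 and Gbp2 by 1.33. The same held for 5 of the 9 members called below 2-fold: the change was then 0.49 for Ifi35, 0.52 for Ifit2, 0.29 for Ifit3, -0.51 for Sp100 and 0.17 for Ifnar2, which lost its call. The 10 members of at least 2-fold were all still called under that correction, and 9 of the 10 were called under each of the 17 alternative settings, Herc6 being the exception.

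**Figure D2:**
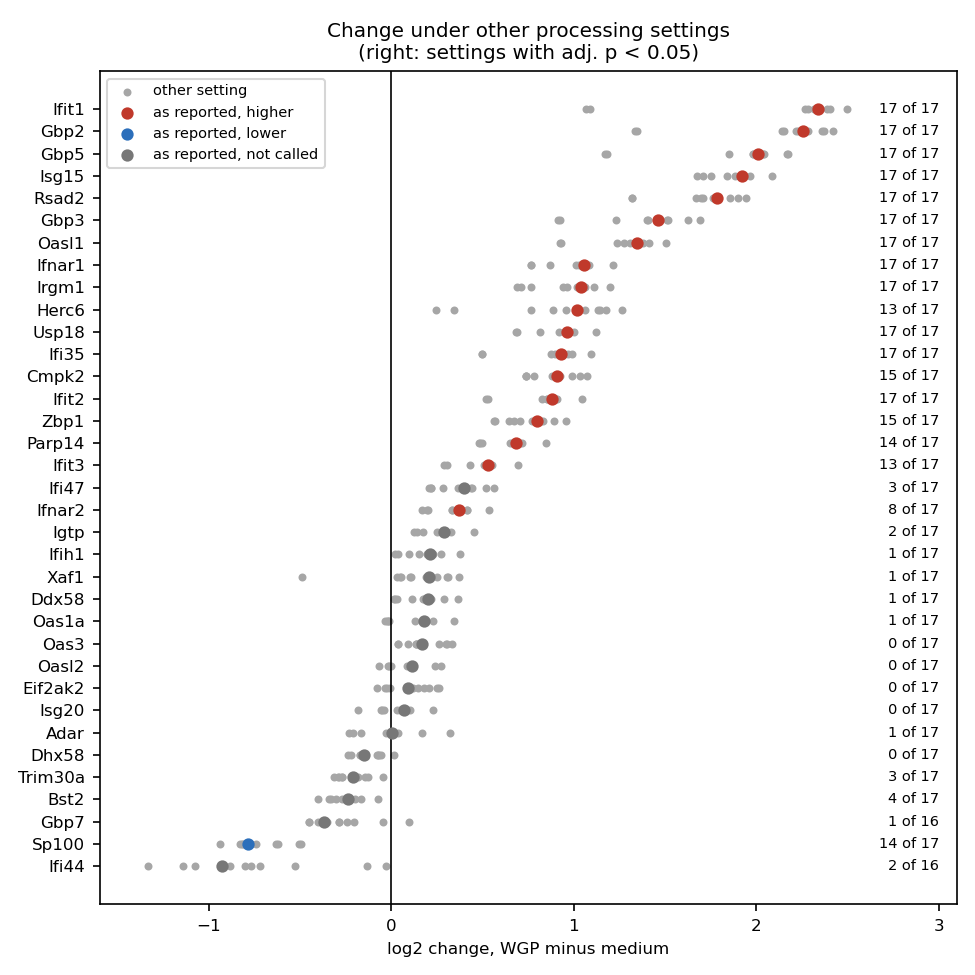
Change with WGP (log2, x axis) of each tested member (rows) as reported (large points, red higher, blue lower, dark grey not called) and under each alternative setting (small grey points); the figures at the right give the number of settings in which the member was called. No called member crosses 0, and among the called ones Ifnar2 has the fewest settings with a call, 8 of 17.

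The ISRE core was frequent among the members' promoters, and it lay both in members that rose and in members that were not called. Promoter windows, from 250 bases before to 50 bases after the start, were found for 31 of the 39 members. The ISRE core lay in 17 of the 31 (54.8%), where it lay in 3.99% of 27025 genes with a promoter. The GAS core TTCNNNGAA lay in 12 of 31 (38.7%), where it lay in 9.55% of all genes. Both cores were searched on both strands, and the members were chosen as interferon targets, so these shares are a description of the choice.

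Among the members called higher, 8 of 15 with a window held the ISRE core (53.3%), and among those not called 9 of 15 did (60.0%). Over all tested genes the core lay in 3.61% of those higher, 4.89% of those lower and 3.74% of those not called. Single genes were mixed. Gbp7 held 1 ISRE and 2 GAS matches, like Gbp5, whose promoter is printed above and which rose 4.02-fold. Oas1a and Bst2 held 2 ISRE matches each and were not called, whereas Oasl1, Herc6 and Cmpk2 held neither core and were higher. A match describes letters only and is not evidence of binding.

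**Figure D3:**
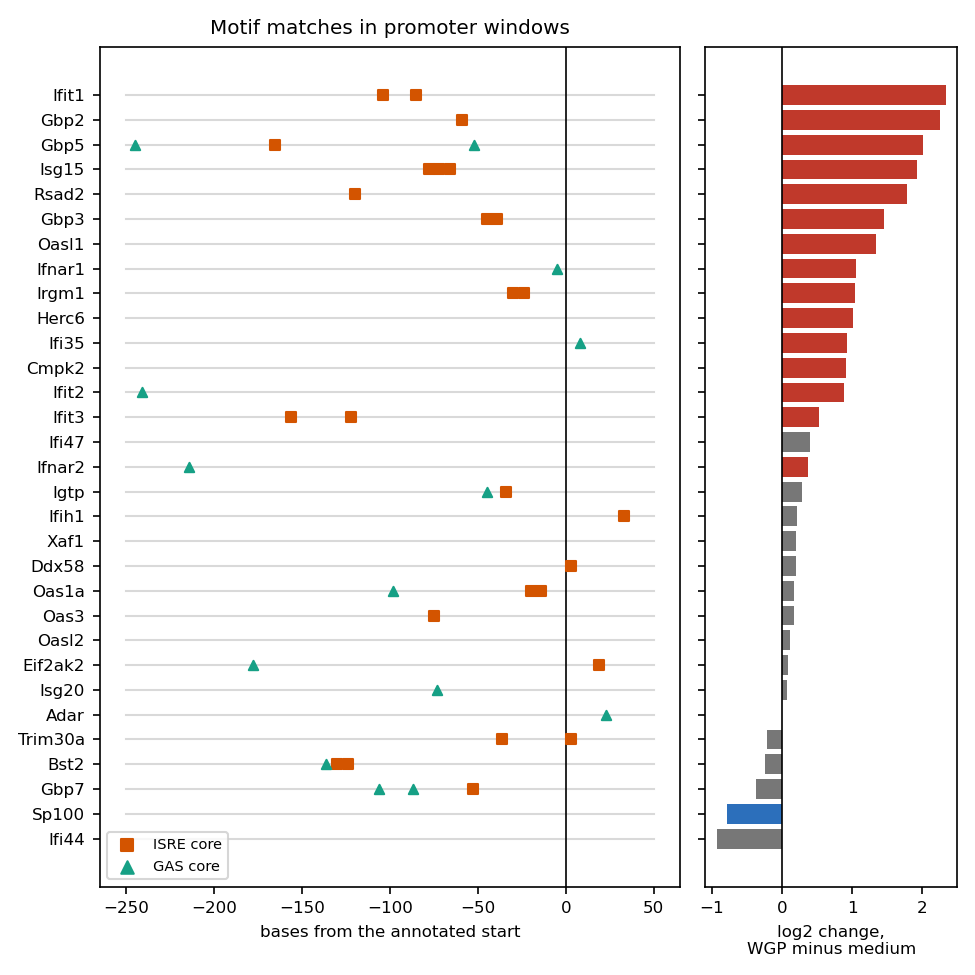
Positions of ISRE and GAS matches relative to the gene's start (x axis, bases) in the promoter windows of the 31 members with a window, ordered by their change with WGP, which the bars at the right give on the log2 scale (red higher, blue lower, grey not called). Matches are found in members that rose, such as Ifit1, Gbp2 and Isg15, and in members that were not called, such as Oas1a, Bst2 and Gbp7.

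The rest of the interferon pathway was followed with a further list of 100 genes, of which 92 had a named probe and 73 were tested. 15 were higher (20.5%, against 23.5% of all genes), 21 were lower (28.8%, against 17.2%) and 37 were not called. The median change was 0.038. With each array scaled to its median, 17 were higher and 13 lower, so the balance between the directions depended on the scaling. Of these 36 calls, 13 had a change over 1.5 times as large as after normexp correction. 14 of the 36 held under all 17 alternative settings, and 21 were lost when at least 1 array was left out, as given below.

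Neither of the 2 interferon genes that could be tested was called by limma. Ifnb1, Ifng, Ifna4 and Ifne were well above background on none of the 4 arrays. Ifna1 lay at -2.55 and -1.52 in medium and at -2.22 and -2.06 with WGP. Ifnl3 lay at -1.01 and -0.87 in medium and at -1.11 and -1.05 with WGP. Their changes were -0.11 ± 0.37 and -0.14 ± 0.11 (adjusted p = 0.832 and 0.344). Ifna2, Ifna5 and Ifna11 were above background on 1 or 2 of the 4 arrays and were not tested.

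Among the factors that carry the signal, Stat2, Irf9 and Irf7 were not called. Stat2 changed by 0.038 ± 0.095 (adjusted p = 0.77) and its partner Irf9 by 0.12 ± 0.094 (adjusted p = 0.364). Irf7, the factor that amplifies interferon production, changed by -0.18 ± 0.12 (adjusted p = 0.281). Among the kinases and receptors, Jak2 was higher (1.09 ± 0.097, adjusted p = 0.00388). Jak1 and Tyk2, the kinases of the type I receptor, were not called. They changed by 0.49 ± 0.17 and -0.29 ± 0.11 (adjusted p = 0.0815 and 0.105). Ifngr1, the binding chain of the interferon gamma receptor, was lower (-0.65 ± 0.11, adjusted p = 0.016). Irf1 and Irf5 were higher, by 0.99 and 0.76 (adjusted p = 0.00459 and 0.0104). The call on Irf5 was lost without WGP replicate 1, and that on Ifngr1 with either WGP array left out.

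Inhibitors of signalling and adaptors of induction held several of the largest changes. Socs3, which blocks cytokine receptor kinases, lay at -1.45 and -2.20 in medium and at 0.96 and 1.08 with WGP. It rose 7.15-fold (2.84 ± 0.28, adjusted p = 0.00466). Traf3, an adaptor between sensors and kinases, lay at 0.34 and 0.24 in medium and at 2.55 and 2.48 with WGP. It rose 4.68-fold (2.23 ± 0.10, adjusted p = 0.00137). Socs1, the main inhibitor of interferon receptor signalling, was higher by 1.97 ± 0.45 (adjusted p = 0.0313), with 1 of 2 medium arrays not well above background and the call lost with either WGP array left out. Ptpn2 was higher and Ptpn6 lower, 2 phosphatases that act on this pathway. Tmem173 (Sting1), the adaptor of cytosolic DNA sensing, was lower (-1.30 ± 0.10, adjusted p = 0.0031), while the DNA sensor Mb21d1 (Cgas) was higher by 0.55 ± 0.11 (adjusted p = 0.0218). After normexp correction the changes were 1.25 for Socs3, 0.46 for Socs1 and 1.56 for Traf3, all still called, while Mb21d1 was not called (0.27, adjusted p = 0.0523). The endosomal receptors Tlr7 and Tlr9 were both lower. When 1 array was left out, the call on Ptpn2 was lost whichever of the 4 it was, that on Mb21d1 for each but medium replicate 1, and that on Tlr7 without WGP replicate 1 or 2, whereas those on Ptpn6, Tmem173 and Tlr9 were kept.

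Of the 41 further interferon-induced genes tested, 16 were lower (39%, against 17.2% of all genes) and 7 higher (17.1%, against 23.5%). With median scaling the counts were 8 and 8, and the lower calls on Ifi27l2a, Ifitm2, Ly6e, Mndal, Mov10, Phf11b, Trim25 and Trim34a were lost. Cxcl10, a chemokine for T cells, lay at -1.31 and -1.39 in medium and at 0.83 and 0.90 with WGP. It rose 4.62-fold (2.21 ± 0.098, adjusted p = 0.00134). Ifitm6 lay at 2.92 and 2.77 in medium and at -0.44 and -0.38 with WGP. It was 9.57-fold lower (-3.26 ± 0.11, adjusted p = 0.00122), the largest change on the list. Ifitm1 lay at 1.01 and 0.82 in medium and at -1.22 and -0.92 with WGP. It was 3.95-fold lower (-1.98 ± 0.15, adjusted p = 0.0031). After normexp correction the changes were 1.11 for Cxcl10, -2.22 for Ifitm6 and -1.10 for Ifitm1, all still called. Ifitm2 and Ifitm3 were lower too, so all 4 listed genes of this family of membrane proteins that hinder viral entry were called lower, the call on Ifitm2 being lost with median scaling and when any 1 array was left out.

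Beside Cxcl10, the genes called higher in that list were Slfn2, Tor3a, Nmi, Rtp4, Slfn8 and Daxx. Those called lower beside the IFITM genes were Oas1c, Gbp9, Samhd1, Pml, Phf11b, Trim34a, Trim25, Mov10, Slfn9, Mndal, Ly6e and Ifi27l2a. Of these, Slfn2, Tor3a, Oas1c and Gbp9 stayed called with any 1 array left out, but Gbp9 was well above background in medium alone. Nmi, Pml, Phf11b and Trim34a lost the call without WGP replicate 1 or 2, Samhd1 without WGP replicate 2, and Slfn9 without medium replicate 2 or WGP replicate 1. Mndal and Ly6e lost it when any array but medium replicate 2 was left out, and Rtp4, Slfn8, Daxx, Trim25, Mov10 and Ifi27l2a whichever array was left out. With the slide as a replicate block the calls on Daxx, Slfn8, Ifi27l2a and Ly6e were lost, at adjusted p-values of 0.0793, 0.0642, 0.055 and 0.0675. Gbp9 lost the call in 3 settings, both that use normexp correction and the one with no filter on dim probes, at an adjusted p of up to 0.830. Its change was -0.99 as reported and -0.029 after normexp correction, so its size depended on the treatment of background.

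**Figure D4:**
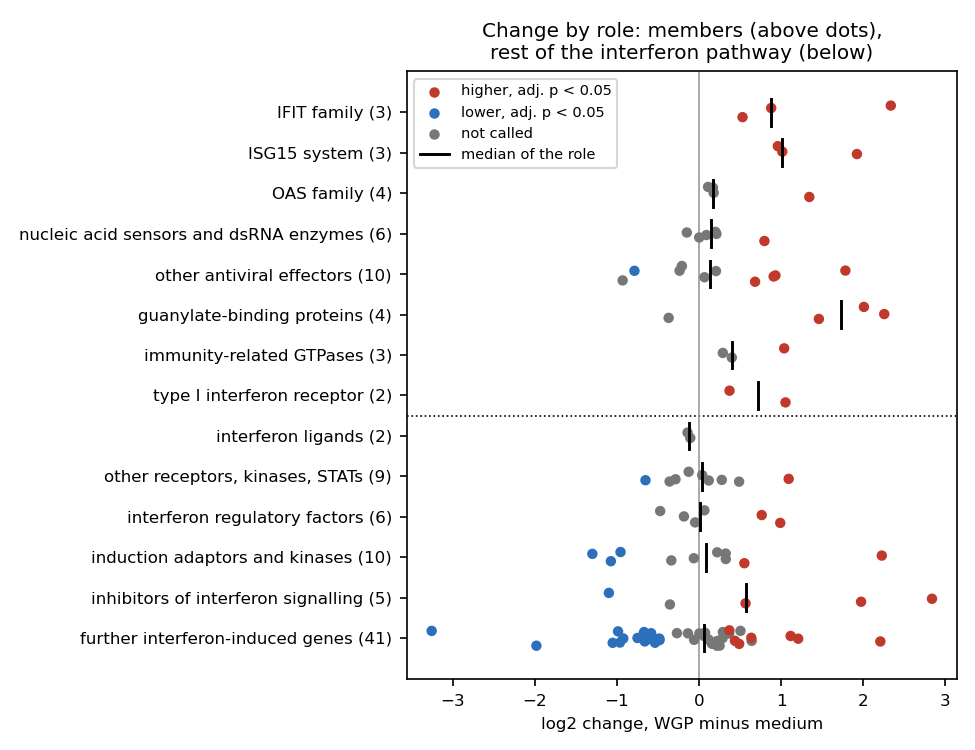
Change with WGP (log2, x axis) of each tested member by role (rows above the dotted line) and of the other pathway genes by role (rows below it); red points were higher, blue lower and grey not called, black bars are the medians of each role, and the number tested is in brackets. Members of the IFIT family, the ISG15 system and the guanylate-binding proteins lie mostly to the right, whereas the further interferon-induced genes spread to both sides.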

How the data were processed

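Total RNA was labelled with Cy3 and hybridised to single-colour Agilent arrays. Per the submitters' processing notes, Agilent Feature Extraction 10.7.3 was used, and the deposited intensity values, the processed signals of the file headers, are already background-subtracted. A deposited value table of log2 values, centred in a way not stated, correlated at 0.9999 with the scanner values centred per probe (39394 probes), and it was used as an alternative. The authors' column medians ran from -0.014 to 0.16; the baseline of the centring stays unknown.

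Control and outlier spots were left out, spots of a probe were averaged, and each array's 75th percentile was subtracted on the log2 scale. Of 39429 probes, 26755 were named through a RefSeq accession. Probes were kept (18443) if both arrays of at least 1 group had 0.5 or more of the probe's spots well above background, and the brightest kept probe stood for a gene. The test of WGP against medium, 2 arrays each, was limma's moderated test (version 3.58.1, R 4.3.3; two-sided, Benjamini-Hochberg over 10945 genes). On simulated data with 2 arrays in each group, 2 of 67 genes changed by 0.5 (log2), 49 of 67 changed by 1 and 63 of 66 changed by 2 were recovered, with 8 false calls among 10945 genes. Only these genes were changed there and the fitted spreads were shuffled over genes, whereas 40.7% of genes were called in the data. The adjusted threshold was therefore stricter in the simulation, so these shares do not give the power of the comparison itself. The replicate numbers mark slide and scan in the file headers, and deviations of arrays with the same number from their group means correlated at 0.14 over genes. With 2 arrays in each group both pairs give the same value by construction, so this is a single comparison.

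The members, the pathway and marker lists and the roles were chosen with earlier results of these data known. Every member is accounted for; values on each array are given for those called at 2-fold or more, the receptor, members known from the background flag alone and members whose probes differ in sign. Oas2, Sp100, Ifi44 and Iigp1 are given on each array after their values were seen. Of other pathway genes, the 5 largest changes, the ligands, Stat2, Irf9 and Irf7 get values under the rule. Values for further called genes, and for Jak1 and Tyk2, were added after they were seen. A further item under the rule is not reported here. Probe and protein sequences were not used here.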

Additional observations from a re-analysis of the deposited data

How the results depend on the processing

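Over 17 alternative settings, 12 of the 19 called members stayed called in each and 7 lost the call in at least 1 (Cmpk2, Zbp1, Parp14, Sp100, Ifit3, Herc6 and Ifnar2), and none of the 19 changed sign. The number of members higher ran from 12 to 24. The number lower, 1 as reported, was 3 with normexp on the median signal (Bst2 and Trim30a beside Sp100), 2 with quantile normalization, 4 with both, 0 with no filter on dim probes and 5 with every file as its own sample. Of all genes, median scaling called 1189 lower, with 73.0% of calls higher against 57.8% as reported, and shifted the median over all genes to 0.20 and over the members to 0.56. The members' median, 0.40 as reported, was 0.26 with quantile normalization and 0.21 with normexp on the median signal. The medians over all genes were then -0.0039 and 0.043. No filter gave 909 higher and 632 lower, and every file as its own sample 4139 and 3296. Of the pathway genes that are not members, 17 were higher and 13 lower with median scaling, 7 were higher and 7 lower with no filter, and 29 were higher with every file as its own sample. With 1 array left out, all genes ran from 1159 to 1966 higher and 972 to 1259 lower, members from 12 to 16 higher and 0 to 1 lower, and pathway genes from 7 to 13 higher and 9 to 16 lower (the remaining array of that group is taken to vary as the pair does). With the replicate number as a replicate block, 17 members were higher and 1 lower, and 2286 and 1790 of all genes; beside Ifnar2 no call on a member changed, and of the pathway genes 13 were higher and 19 lower, with the calls on Daxx, Slfn8, Ifi27l2a and Ly6e lost. 8 members that were not called changed sign in some settings, and the cause was not tested. With normexp the changes were -0.23 for Adar, -0.0085 for Eif2ak2, 0.094 for Gbp7, -0.056 for Isg20, -0.022 for Oas1a and -0.013 for Oasl2. With quantile normalization they were -0.17 for Adar, -0.040 for Isg20, -0.011 for Oas1a and -0.066 for Oasl2. With both they were -0.21 for Adar (called lower, adjusted p = 0.0465), -0.035 for Eif2ak2, -0.052 for Isg20 and -0.021 for Oas1a. Median scaling gave 0.014 for Dhx58, and the mean of all kept probes gave -0.19 for Isg20, -0.034 for Oas1a and -0.49 for Xaf1. With 1 array left out, Oasl2 ran from -0.018 to 0.24, Adar from -0.031 to 0.036 and Eif2ak2 from -0.080 to 0.26. Signal over background limits Gbp7, Gbp9, Ifi44, Iigp1 and the interferon genes.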
